A study of Homo sapiens with 18 samples.

Results

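The loci of 10 enzymes and readers of repressive chromatin (KDM5A, KDM5B, SETDB1, EHMT2, TRIM28, CBX5, HDAC1, HDAC2, EZH2 and DNMT1) held 94 of the 79483 open-chromatin regions of the series, or 0.118%. The members were all regions within 50 kb of the 10 gene bodies, whose hg19 intervals are rounded to the nearest kb, and this rule uses no measured value. A region is the merged extent of all ATAC-seq peaks, called separately in 18 libraries, that share at least 1 bp. The CBX5 window held 15 regions, HDAC2 14, DNMT1 13, EHMT2 10, SETDB1 and HDAC1 9 each, KDM5B 7, TRIM28 and EZH2 6 each, and KDM5A 5.

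The products of these genes lay down, read or maintain chromatin marks that keep genes and repeated elements silent. KRAB zinc finger proteins bring the scaffold protein TRIM28 to repeats such as LINE-1, TRIM28 brings the histone methyltransferase SETDB1, and CBX5 (HP1 alpha) binds the methylated histone tail that results. KDM5A and KDM5B remove an active methyl mark from histone H3, EZH2 adds the Polycomb mark, HDAC1 and HDAC2 strip acetyl groups, and DNMT1 copies DNA methylation at replication. In PC9 cells KDM5A is known as a factor that persister cells need to tolerate erlotinib.

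All libraries came from PC9, a human lung adenocarcinoma line driven by mutant EGFR, and no genetic change was made in any group. DTP (drug-tolerant persister) cells were those alive after an 8-day exposure to the EGFR kinase inhibitor erlotinib at 1 µM, and were set against unsorted PC9 cells in DMSO. The other 4 groups were PC9 cells kept for 12 h in 1 µM erlotinib or DMSO and then sorted by Aldefluor staining into ALDH-high and ALDH-low fractions: ALDH-high erlotinib, ALDH-high DMSO, ALDH-low erlotinib and ALDH-low DMSO. Each group had 3 libraries, lettered a, b and c, and the sort came after the treatment, so the fractions were not separated before it. Only 1 line was studied, and the labels do not say whether the 3 libraries are separate cultures, so the spread behind each p-value is that among libraries and may be technical only.

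Open chromatin was mapped by ATAC-seq, which uses a transposase to place adapters in accessible DNA. The lists held between 26225 and 45241 peaks, with a lowest peak score of 70 in every list, and their read depth is unknown. A region missing from a list was not called there, which does not show that it was closed. In a bulk library, fewer cells with an open site and less opening per cell cannot be told apart. Across the windows 17 of 94 regions (18.1%) were called in all 18 libraries and 17 (18.1%) in a single library, against 17.7% and 21.2% of all regions. The member regions had a median width of 1093 bp, against 999 bp over all regions.

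The promoter sequences below are shown because the start of the gene was called open in every library at some of these loci and in few or none at others. Each run is 300 bases on the coding strand, from 250 before to 50 after the transcription start, from RefSeq on GRCh38.p14, with each CG dinucleotide in capitals. EZH2 and DNMT1 stand for the loci whose 5′ edge was called in all 18 libraries, SETDB1 for one called in 12, EHMT2 for one called in 6, and KDM5B for a locus with no called region within 1 kb of the edge.
EZH2: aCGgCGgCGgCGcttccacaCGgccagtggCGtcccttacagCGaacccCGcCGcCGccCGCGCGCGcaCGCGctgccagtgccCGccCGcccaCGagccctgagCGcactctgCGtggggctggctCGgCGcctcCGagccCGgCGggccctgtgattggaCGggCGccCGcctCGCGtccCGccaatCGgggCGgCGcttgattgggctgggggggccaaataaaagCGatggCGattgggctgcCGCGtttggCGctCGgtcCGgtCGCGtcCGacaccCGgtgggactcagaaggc
DNMT1: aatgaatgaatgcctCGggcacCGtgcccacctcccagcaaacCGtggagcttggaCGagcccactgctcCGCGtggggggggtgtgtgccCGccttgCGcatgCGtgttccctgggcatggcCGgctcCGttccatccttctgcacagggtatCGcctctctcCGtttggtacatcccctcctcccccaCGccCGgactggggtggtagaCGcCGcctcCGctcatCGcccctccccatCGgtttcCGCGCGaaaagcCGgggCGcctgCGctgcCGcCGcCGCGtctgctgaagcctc
SETDB1: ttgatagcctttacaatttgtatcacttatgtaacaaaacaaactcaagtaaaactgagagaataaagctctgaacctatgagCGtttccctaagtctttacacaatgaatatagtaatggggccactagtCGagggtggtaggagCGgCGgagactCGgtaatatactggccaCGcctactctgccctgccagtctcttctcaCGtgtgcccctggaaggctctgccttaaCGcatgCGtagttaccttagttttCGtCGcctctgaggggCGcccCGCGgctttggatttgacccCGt
EHMT2: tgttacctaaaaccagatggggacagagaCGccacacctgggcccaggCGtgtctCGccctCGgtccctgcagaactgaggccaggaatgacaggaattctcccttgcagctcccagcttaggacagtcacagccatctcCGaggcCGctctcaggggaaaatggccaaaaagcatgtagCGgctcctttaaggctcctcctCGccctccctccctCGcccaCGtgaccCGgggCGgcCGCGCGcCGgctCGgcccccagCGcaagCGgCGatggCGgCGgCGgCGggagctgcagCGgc
KDM5B: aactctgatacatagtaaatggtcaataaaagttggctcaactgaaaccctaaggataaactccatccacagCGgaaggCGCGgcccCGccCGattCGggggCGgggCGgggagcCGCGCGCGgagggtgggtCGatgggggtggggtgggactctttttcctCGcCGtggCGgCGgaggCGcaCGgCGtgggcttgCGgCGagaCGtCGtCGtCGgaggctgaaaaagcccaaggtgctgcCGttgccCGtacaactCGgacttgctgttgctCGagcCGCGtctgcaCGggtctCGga
RefSeq windows were found for 9 of the 10 genes, and TRIM28 had no entry. These 9 genes' first entries held from 15 CG dinucleotides (SETDB1) to 46 (EZH2), against a median of 14 over the 35116 windows of the table. EZH2 held more CG dinucleotides than 97.1% of all windows. KDM5B, with no called region at its edge, held 34 CG dinucleotides, and DNMT1, called in all 18 libraries, held 30. The GC box GGGCGG, searched on both strands, occurred 6 times in the HDAC1 window, 4 times in EZH2, 3 times in KDM5B, 2 times in CBX5 and 1 time each in KDM5A and EHMT2, and 45% of all windows hold it. The E-box CACGTG, which reads the same on both strands, occurred in SETDB1, EHMT2 and CBX5, against 7.26% of all windows. The AP-1 motif TGANTCA, on both strands, occurred in none of the 9 first windows, against 7.71% of all windows. A match is a stretch of letters and not a site of binding.

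**Figure D1:**
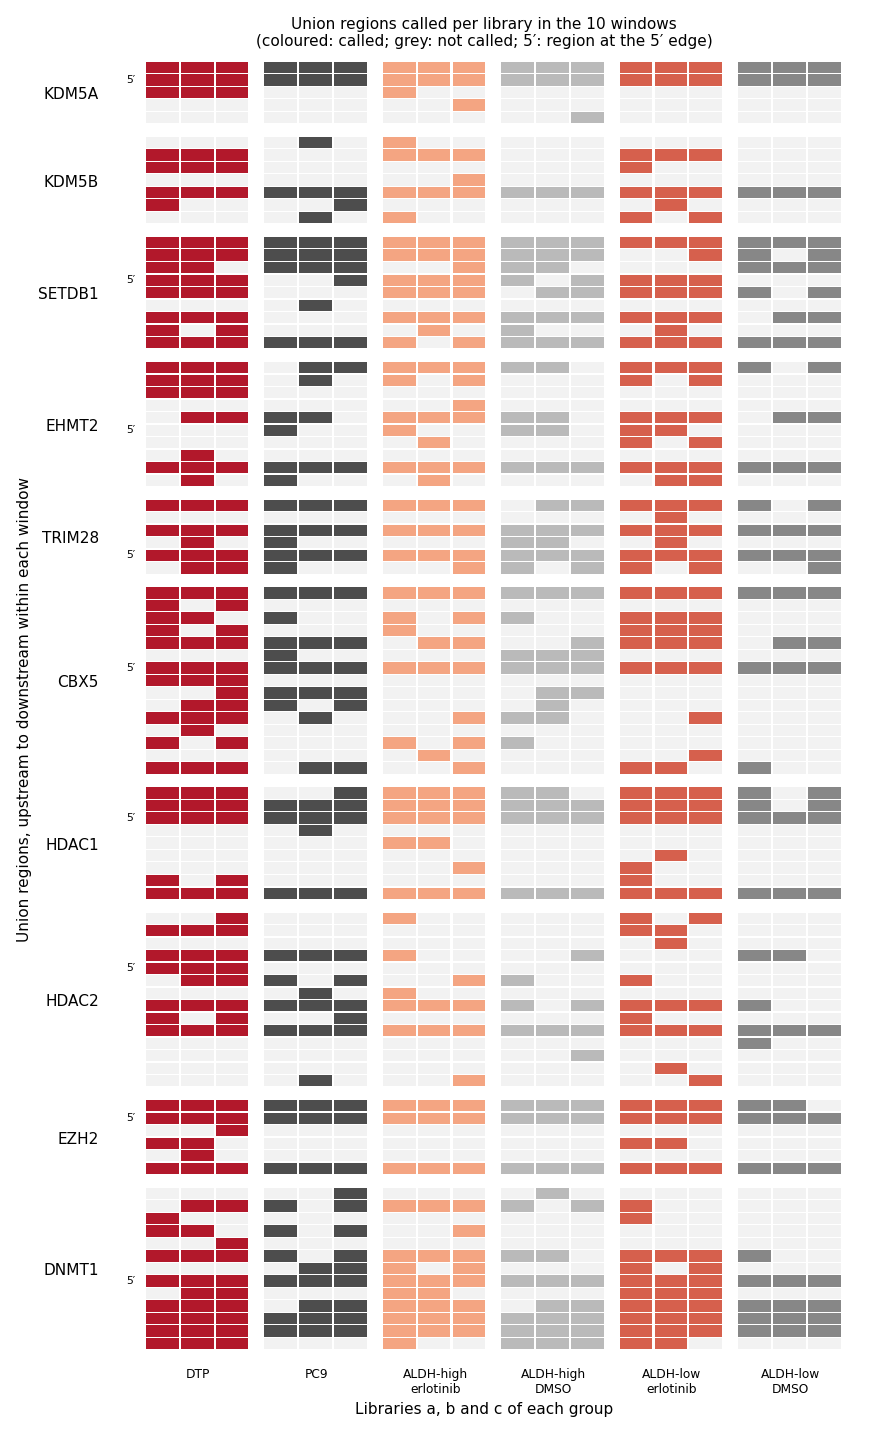
Every region of the 10 windows (rows, from upstream to downstream within each window) in each of the 18 libraries (columns, libraries a, b and c of each group). Coloured cells are called and grey cells are not called; the mark 5′ stands beside the 9 regions that lie at the edge of a gene body. Most edge rows are filled across all columns, while the DTP columns hold rows left empty in PC9.

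At the starts of the genes, the call was shared by all groups at most loci. A region overlapping or within 1 kb of the 5′ edge was called in all 18 libraries at KDM5A (chr12:497598-499379), CBX5 (chr12:54672876-54675469), HDAC1 (chr1:32756131-32758426), EZH2 (chr7:148579954-148582758), DNMT1 (chr19:10304254-10306318) and TRIM28 (chr19:59054774-59056546). The CBX5 edge was among the highest-scoring peaks of each list, at a within-list score percentile between 84.8 and 98.3. RefSeq on GRCh38 lists HNRNPA1 among the neighbours of CBX5 and CCDC77 among those of KDM5A. Whether an edge region also covers the start of a neighbour was not read. None of these 6 edge regions changed in called width in DTP against PC9 or with erlotinib at an adjusted p under 0.05 (limma). The nearest to it was the KDM5A edge, where 1709, 1282 and 1115 bp were called in DTP libraries a, b and c, against 779, 735 and 974 bp in PC9. All 3 DTP values were above all 3 PC9 values, yet the log2 difference of 0.65 ± 0.185 (SE) had an adjusted p of 0.173 by limma.

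At the remaining loci no region at the edge of the interval was called in all 18 libraries. SETDB1's edge (chr1:150898149-150899333) was called in 12 libraries, EHMT2's (chr6:31864891-31866714) in 6, and the edge of the HDAC2 interval (chr6:114332338-114333351) in 3. The HDAC2 interval is 79 kb long, whereas the RefSeq gene on GRCh38 spans 38.1 kb, so its edge may not be the start of the gene. Within it, chr6:114290571-114293213 was called in all 18 libraries at percentiles between 88.4 and 97.5. This region is 2643 bp wide and begins 36.6 kb from the 3′ edge of the interval. A gene of 38.1 kb that ends at that 3′ edge would start inside it. The hg19 position of the gene was not checked. For KDM5B the nearest region, chr1:202779432-202780855, began 1.4 kb upstream of the edge and was called in all 18 libraries at percentiles between 6.52 and 64.7.

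DTP cells held more of the member regions than PC9 cells. DTP libraries a, b and c held 55, 58 and 59 of the 94 regions, against 39, 40 and 41 in PC9. The lists of DTP were longer as a whole, at 42204, 44874 and 45241 peaks, against 40105, 39394 and 41831 peaks in PC9. Per 1000 peaks of the list, DTP libraries had 1.33, 1.31 and 1.3 peaks in the windows, against 0.972, 1.02 and 0.98 in PC9. The 2 groups did not overlap on either scale, and the part of list length in the surplus was not tested. In the sorted cells, ALDH-high erlotinib libraries a, b and c had 1.18, 1.14 and 1.21 peaks per 1000, against 1.22, 1.29 and 1.18 in ALDH-high DMSO, and ALDH-low erlotinib libraries had 1.33, 1.32 and 1.44, against 1.21, 0.953 and 1.14 in ALDH-low DMSO. The higher density was thus also seen after 12 h in ALDH-low cells. Called bases in the windows came to 59 ± 1.88 kb in DTP and 37.8 ± 1.17 kb in PC9 (mean ± SD, n = 3 libraries each). Over the whole lists they were also higher in DTP, at 42.1, 42.9 and 43.4 Mb, against 37.6, 37.6 and 38.6 Mb in PC9.

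**Figure D2:**
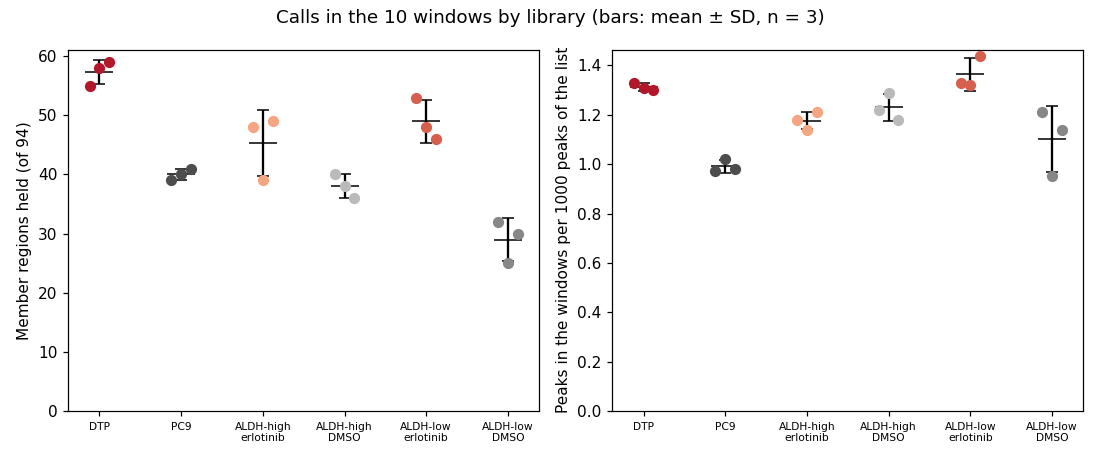
Left, number of the 94 member regions held by each library; right, peaks in the windows per 1000 peaks of that library's list. Points are libraries and bars are the mean ± SD of 3 libraries per group. DTP lies above PC9 and ALDH-low erlotinib above ALDH-low DMSO on both axes, whereas ALDH-high erlotinib and ALDH-high DMSO overlap on both.

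Gained regions are those present in each of the 3 libraries of a group and in 0 of the 3 it was set against; lost regions are the opposite. This rule has no p-value, since 3 against 3 libraries cannot give an exact two-sided p below 0.1. In DTP against PC9, 10 of the 80 member regions held by either group (12.5%) were gained, against 6.75% of all regions, which would be 5.4 of 80. No member region was lost, against 3.68% of all regions. The 10 lay at 7 of the 10 loci: 2 each at KDM5B, SETDB1 and HDAC2, and 1 each at KDM5A, EHMT2, CBX5 and DNMT1. The windows of TRIM28, HDAC1 and EZH2 held none. When each list was cut to its 26225 highest-scoring peaks, 4 of the 10 still met the rule (1 each at KDM5A, KDM5B, SETDB1 and CBX5), and 6 did at a score of at least 100.

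Among the histone H3 lysine demethylases, KDM5A gained a region inside the gene in DTP, chr12:461339-462279, which lies 36.7 kb past the 5′ edge. DTP libraries a, b and c had 858, 920 and 862 bp called there, against none in PC9, at score percentiles of 48.7, 56.3 and 63.9. Of the 12 sorted libraries only ALDH-high erlotinib a held it, with 721 bp. KDM5A's window was otherwise sparse, with 3 regions held in each DTP library and 2 in each PC9 library. DTP lists were longer as a whole, at 42204 to 45241 peaks against 39394 to 41831 in PC9. The part of list length was not tested.

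KDM5B gained 2 upstream regions in DTP. The nearer one, chr1:202790379-202791109, lies 12.4 kb before the edge and had 578, 473 and 731 bp called in DTP libraries a, b and c, against none in PC9. ALDH-low erlotinib a also held it, and no other sorted library did. The farther one, chr1:202805273-202806477, lies 27.3 kb before the edge and had 741, 887 and 660 bp called in DTP, against none in PC9.

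That farther KDM5B region was also the 1 member region that separated treatment in both ALDH fractions. ALDH-high erlotinib libraries a, b and c had 1205, 976 and 1035 bp called, against none in ALDH-high DMSO. ALDH-low erlotinib libraries had 1043, 815 and 946 bp called, against none in ALDH-low DMSO. It was thus held by all 9 libraries exposed to erlotinib and by none of the 9 in DMSO. Over the 12 sorted libraries the exact conditional permutation test, with labels exchanged within fractions, gave a two-sided p of 0.005, the smallest this design can give. Adjusted by Benjamini-Hochberg over the 13213 regions that could be tested, p was 0.0599, a value shared by all regions with this pattern. Regions with it made up 1.55% of all regions, and 1 of 83 member regions (1.2%) had it. Its scores were modest, at percentiles between 8.74 and 36.4 in DTP and between 21.8 and 67 in the sorted erlotinib libraries. In lists of equal size it was missing from ALDH-high erlotinib b and from the DTP libraries, and still met the rule in ALDH-low cells. RefSeq on GRCh38 places SYT2, which encodes a synaptotagmin, among the genes within 50 kb of KDM5B on either side. On which side SYT2 lies was not read, and no region was assigned to either gene.

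**Figure D3:**
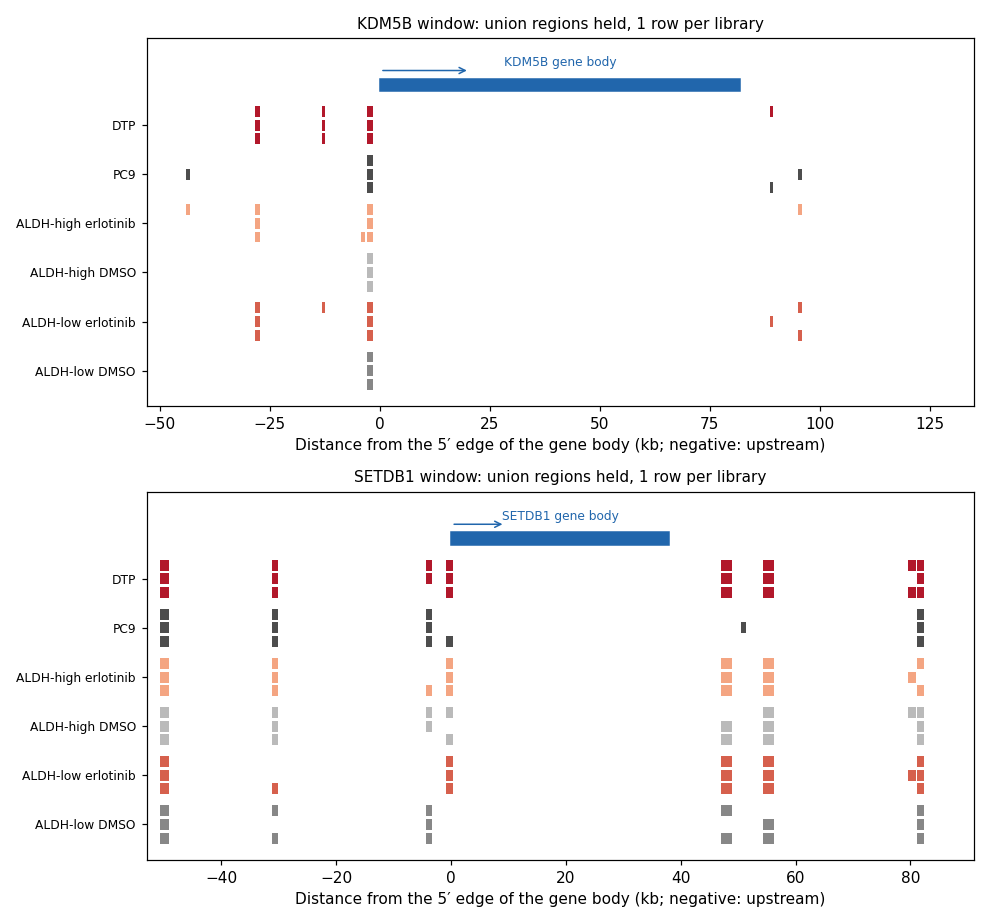
Regions held in the KDM5B window (top) and the SETDB1 window (bottom), drawn to scale by distance from the 5′ edge of the gene body in kb, with 1 row per library and 3 rows per group. The blue bar is the gene body and the arrow its direction. The KDM5B region 27.3 kb upstream fills every DTP and erlotinib row and no PC9 or DMSO row, and the 2 gained SETDB1 regions past the gene fill every DTP row and no PC9 row.

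SETDB1 methylates histone H3 where TRIM28 brings it. DTP libraries a, b and c held 8, 7 and 7 of the 9 regions in the SETDB1 window, against 4, 5 and 5 in PC9. DTP lists were longer as a whole, at 42204 to 45241 peaks against 39394 to 41831 in PC9. The part of list length in this count was not tested. As for gained and lost regions, 6.75% of all regions were gained in DTP and 3.68% lost. The 2 gained regions lay downstream, at chr1:150945947-150947873 and chr1:150953414-150955253, which are 8.9 and 16.4 kb past the gene. The second was the stronger by score, with 1444, 1588 and 1785 bp called in DTP libraries at percentiles of 75.3, 71.1 and 79.5, against none in PC9. Both regions were also called in most sorted libraries under either treatment, the first in 10 of 12 and the second in 11 of 12, so PC9 was the group in which they were not called. RefSeq on GRCh38 lists CERS2, ANXA9, MINDY1, PRUNE1, ARNT and CTXND2 among the neighbours of SETDB1, taken from both sides of the gene. The downstream regions were not assigned to any of them.

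At the SETDB1 5′ edge the call followed erlotinib in ALDH-low cells. ALDH-low erlotinib libraries a, b and c had 1138, 760 and 721 bp called, against none in ALDH-low DMSO. ALDH-high erlotinib libraries had 883, 746 and 902 bp called, while ALDH-high DMSO had 929 and 804 bp in libraries a and c and none in b. All 3 DTP libraries held the edge region, against 1 of the 3 PC9 libraries. Over the 12 sorted libraries the exact permutation p was 0.05 and the adjusted p 0.149. A region 3.3 kb upstream, chr1:150894681-150895732, ran the other way: it was called in none of the ALDH-low erlotinib libraries, against 876, 723 and 825 bp in ALDH-low DMSO. It was held by 1 ALDH-high erlotinib library against 2 of ALDH-high DMSO, and by 2 DTP libraries against 3 of PC9 (exact p 0.095 and adjusted p 0.19 over the sorted libraries). TRIM28, the scaffold, had no region gained or lost in any of the 7 comparisons, and DTP libraries held between 3 and 5 of its 6 regions, against 3 to 5 in PC9.

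CBX5, which reads the methylated histone tail, had the most regions of any window. DTP libraries a, b and c held 10, 9 and 11 of its 15 regions, against 7, 6 and 6 in PC9. The longer DTP lists, at 42204 to 45241 peaks against 39394 to 41831 in PC9, may add to this count. Their part was not tested. The gained region, chr12:54655970-54656988, lies inside the gene, 17.0 kb past the 5′ edge. It had 1019, 986 and 759 bp called in DTP libraries, at percentiles of 38.8, 64.1 and 53, and was called in none of the other 15 libraries.

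In the sorted cells the CBX5 window held 4, 5 and 7 regions (ALDH-high erlotinib, in rising order), against 5, 6 and 6 in ALDH-high DMSO, and 6, 6 and 7 in ALDH-low erlotinib, against 3, 3 and 3 in ALDH-low DMSO. The ALDH-high groups overlapped and the ALDH-low groups did not, while the lists as a whole held 34317 to 40710 peaks in ALDH-high erlotinib, against 30336 to 32819 in ALDH-high DMSO, and 32583 to 40670 in ALDH-low erlotinib, against 26225 to 26438 in ALDH-low DMSO. The part of list length in these counts was not tested. The 2 regions gained with erlotinib in ALDH-low cells lay upstream, chr12:54697477-54698763 at 23.5 kb and chr12:54700519-54701570 at 26.5 kb. Their scores were low, with percentiles between 11.5 and 28.3 for the first and between 2.73 and 50.6 for the second in ALDH-low erlotinib, and neither met the rule in lists of equal size or at a score of at least 100. Another upstream region, chr12:54681850-54683305 at 7.8 kb, was called in ALDH-high DMSO, with 1233, 1296 and 1043 bp in libraries a, b and c. It was absent from all ALDH-high erlotinib and all ALDH-low libraries, and apart from these was held only by PC9 a. RefSeq on GRCh38 lists HNRNPA1, COPZ1, NFE2 and SMUG1 near CBX5.

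EHMT2, also known as G9a, methylates the same lysine as SETDB1 and lies in the major histocompatibility complex on chromosome 6, among C2, CFB, NEU1, HSPA1B, SLC44A4 and ZBTB12 in the RefSeq table. One upstream region, chr6:31887456-31888321 at 21.5 kb, was gained in DTP, with 547, 614 and 716 bp called in libraries a, b and c and no call in the other 15. The edge region was called in no DTP library and in 1 PC9 library. Among sorted libraries the edge was held by 1 ALDH-high erlotinib library against 2 of ALDH-high DMSO, and by 2 ALDH-low erlotinib libraries against none of ALDH-low DMSO. Its scores reached only the 27.6th percentile of a list.

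The largest width change with 12 h of erlotinib among the member regions lay 14.8 kb past the 3′ edge of EHMT2, at chr6:31829983-31832217, which every library held. This region was not assigned to EHMT2 or to any of its neighbours. ALDH-high erlotinib libraries a, b and c had 2015, 2078 and 2027 bp called there, against 1154, 1118 and 920 bp in ALDH-high DMSO. ALDH-low erlotinib libraries had 2034, 2105 and 2088 bp, against 1115, 1073 and 788 bp in ALDH-low DMSO. Every erlotinib library was above every DMSO library, and the log2 difference over both fractions was 0.87 ± 0.103 (SE) with an adjusted p of 0.00108 (limma, over 14705 regions). After 8 days the ranges overlapped, with 1169, 917 and 2062 bp in DTP and 1104, 1614 and 966 bp in PC9. Score percentiles were 79.1 to 82.2 in ALDH-high erlotinib, against 79.3 to 83.2 in ALDH-high DMSO, and 79.2 to 86.8 in ALDH-low erlotinib, against 58.9 to 78.3 in ALDH-low DMSO. The rank of the peak thus overlapped between treatments in ALDH-high cells and was higher in every erlotinib library in ALDH-low cells. It was the only member region of the 17 tested to pass, and 0.857% of all regions passed as wider and 0.564% as narrower, with 0 members narrower.

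**Figure D4:**
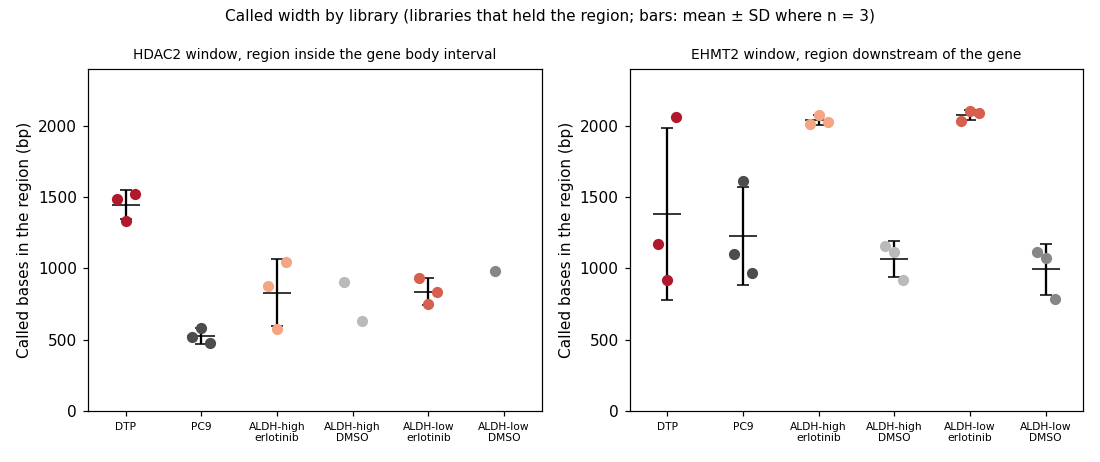
Called bases in 2 regions for each library that held them, with the mean ± SD where all 3 libraries of a group did. Left, the region inside the HDAC2 interval, where DTP lies at 1331 to 1519 bp and PC9 at 475 to 581 bp. Right, the region downstream of EHMT2, where the 6 sorted erlotinib libraries lie at 2015 to 2105 bp and the 6 sorted DMSO libraries at 788 to 1154 bp.

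Of the class I deacetylases, HDAC1 had no region gained or lost in any comparison, with 18 of 18 libraries calling both its edge and chr1:32816251-32818331, which lies 17.3 kb downstream. HDAC2 gained 2 regions in DTP. At the edge of the interval, chr6:114332338-114333351 had 881, 1014 and 590 bp called in DTP libraries a, b and c and no call in the other 15, but its scores were at the 4.99th to 23.9th percentile and in lists restricted to a score of at least 100 no library held it. Upstream by 37.4 kb, chr6:114370404-114371519 had 857, 638 and 744 bp called in DTP, against none in PC9, and was also held by 2 ALDH-low erlotinib libraries. Neither HDAC2 region met the rule in lists of equal size.

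Inside the HDAC2 interval, 15.4 kb from its edge, chr6:114315676-114317597 was wider in DTP. DTP libraries had 1489, 1331 and 1519 bp called, against 522, 581 and 475 bp in PC9. The groups lay far apart, with a log2 difference of 1.40 ± 0.133 (SE) and an adjusted p of 0.0106 (limma, over the 24186 regions held by all 6 libraries). Score percentiles in DTP were 15.3, 38 and 66.3, against 61.8, 52.7 and 52.8 in PC9, so the wider call did not come with a higher rank. Of the 25 member regions tested, this 1 was wider and 0 were narrower, against 0.314% and 0.273% of all regions. In lists of equal size and at a score of at least 100 not all 6 libraries held it, so it could not be tested there.

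EZH2, the catalytic subunit of Polycomb repressive complex 2, had no region gained or lost. DTP libraries held 4 or 5 of its 6 regions, against 3 in each PC9 library, and the additional calls lay inside the gene, each in 1 or 2 DTP libraries. Here too the part of the longer DTP lists (42204 to 45241 peaks, against 39394 to 41831 in PC9) was not tested. The top-scoring member region of the 10 windows by median percentile, 97.9, was chr7:148469213-148470558, located 33.4 kb past the 3′ end of EZH2 and called in all 18 libraries. The RefSeq table lists CUL1 near EZH2.

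DNMT1, the maintenance DNA methyltransferase, gained chr19:10196425-10197514 in DTP, 46.5 kb downstream of the gene, with 607, 736 and 879 bp called in DTP libraries a, b and c, against none in PC9. The same region was gained in ALDH-high DMSO, with 824, 812 and 517 bp, against none in ALDH-low DMSO. Under erlotinib 1 ALDH-high and 2 ALDH-low libraries held it, and the order of the fractions was thus not kept. It met the rule in neither comparison in lists of equal size or at a score of at least 100. Inside the gene, 9.9 kb past the edge, chr19:10294957-10296074 was gained with erlotinib in ALDH-low cells, with 861, 995 and 1118 bp, against none in ALDH-low DMSO. ALDH-high erlotinib libraries a and b had 894 and 857 bp called there and c none, against none in ALDH-high DMSO, and the exact permutation p over the 12 sorted libraries was 0.02 (adjusted p 0.0843). The ALDH-low call was not met in lists of equal size or at a score of at least 100. DTP held the region in 2 libraries and PC9 in none. Near DNMT1 the RefSeq table lists EIF3G, P2RY11, PPAN, ANGPTL6, S1PR2 and SHFL.

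With 12 h of erlotinib few member regions were gained or lost, and in ALDH-low cells their share was near that of all regions. In ALDH-low cells 5 of 68 member regions (7.35%) were gained with erlotinib, 2 at CBX5 and 1 each at KDM5B, SETDB1 and DNMT1, against 6.82% of all regions. In the same cells 1 of 68 (1.47%) was lost, the region upstream of SETDB1, against 0.887%. In ALDH-high cells 1 of 71 (1.41%) was gained, at KDM5B, against 4.52%, and 1 (1.41%) was lost, at CBX5, against 0.998%. Whether the response differed between the fractions was not tested for these counts. The ALDH-low count rests on the strictness of the rule, since it was 10 without ALDH-low erlotinib b and 9 without ALDH-low erlotinib c. Over both fractions 0 of 83 were lost, against 0.16% of all regions. The exact test put 2 of 15 testable member regions (13.3%), at KDM5B and DNMT1, at an unadjusted p under 0.05 with more calls under erlotinib, against 21% of all testable regions, and 0 with fewer, against 2.72%.

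Few member regions separated the ALDH fractions. Under DMSO 2 of 52 member regions (3.85%) were gained in ALDH-high against ALDH-low cells, the CBX5 region 7.8 kb upstream and the DNMT1 region 46.5 kb downstream, against 1.28% of all regions, and 0 were lost, against 0.14%. ALDH-high DMSO lists were longer, at 30336 to 32819 peaks, against 26225 to 26438 in ALDH-low DMSO, and ALDH-high DMSO libraries held 36 to 40 member regions, against 25 to 32. The part of list length in these calls was not tested, and the count was 4 without ALDH-high DMSO b and 5 without ALDH-high DMSO c. Under erlotinib 0 of 76 were gained and 0 lost, against 0.893% and 0.446%, with 39 to 49 regions held in ALDH-high erlotinib and 46 to 53 in ALDH-low erlotinib. Over both treatments 0 of 83 were gained and 0 lost, against 0.0186% and 0% of all regions. None of the 8 testable member regions had an unadjusted exact p under 0.05 in either direction (smallest 0.08), against 1.57% of all testable regions with more calls in ALDH-high and 0.125% with fewer. None of 17 member regions changed in width between fractions by limma, against 0.0272% of all regions wider and 0.0408% narrower.

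**Figure D5:**
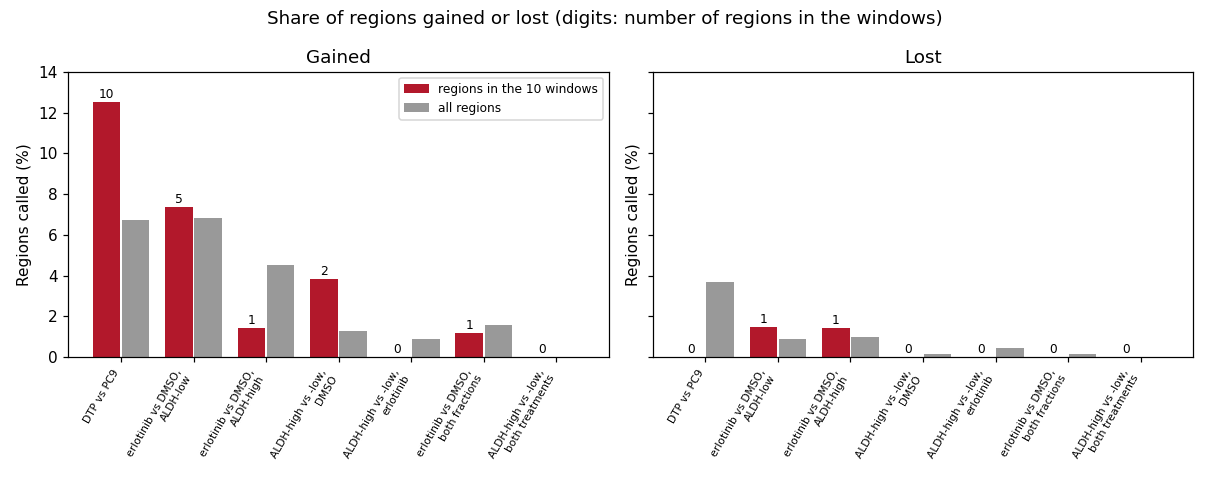
Percent of regions gained (left) and lost (right) in each comparison, in the 10 windows (red) and over all regions held by at least 1 library of either group (grey); the digits count the member regions. DTP against PC9 shows 12.5% of member regions gained, against 6.75% of all regions, and the other comparisons rest on 5 member regions or fewer.

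How the DTP calls stood in the sorted cells could be read from libraries that the DTP comparison did not use. Of the 10 member regions gained in DTP, 3 (30%) were called in no sorted library, those at CBX5, EHMT2 and the HDAC2 edge, against 41.9% of the 4446 regions gained in DTP genome-wide. A further 3 (30%) were called in all 6 sorted erlotinib libraries, the farther KDM5B region and both SETDB1 regions, against 12.4% genome-wide. Of these, the KDM5B region (10%) was also absent from all 6 sorted DMSO libraries, against 7.2% genome-wide. By position, 1 of the 9 edge regions, 2 of the 17 inside genes, 4 of the 38 upstream and 3 of the 30 downstream were gained in DTP. HDAC2 regions were placed by its interval, whose edge may not be the start of the gene.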

How the data were processed

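The data were 18 peak lists from ATAC-seq of PC9 cells, 1 per library and called separately, in 6 groups of 3 taken from the sample labels. The tools named, per the submitters' processing notes, are BWA and MACS 1.4.2, and the build is hg19; trimming, duplicate removal, transposase shift and calling parameters were not given in the sources used here. The score of each peak is the authors' own value, deposited with the list, on a scale that is not stated; it served only for percentiles and thresholds inside each list. Read depth is unknown, so no counting interval is given.

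Peaks on chromosomes 1 to 22 and X sharing at least 1 bp were merged into 79483 regions (Python 3.11.15, numpy 2.4.6), and regions within 50 kb of the 10 gene bodies were the members. The members and lists were chosen with earlier results of these data known. All 10 loci and all their gained or lost regions are named. Over the 12 sorted libraries each region was tested by an exact two-sided conditional permutation test (400 assignments, smallest p 0.005), adjusted by Benjamini-Hochberg over regions able to reach a p under 0.1. Called bases, log2-transformed and centred on each library's median, were compared with limma 3.58.1 (R 4.3.3) in regions held by all libraries compared, with adjustment over all of them and a threshold of 0.05. The procedures were tested on simulated data. Alternatives were a score of at least 100, at least 50% of a region covered, lists of equal size (26225 peaks), windows of 10 kb, each library left out, a replicate block and no centring. Gene positions of hg19 beyond the 10 intervals were not used here, so other genes of the pathway were not located. The RefSeq tables on GRCh38 gave promoter sequences, strands and neighbours, and no coordinate was carried between builds. The strand of TRIM28 was taken from general knowledge.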

Additional observations from a re-analysis of the deposited data

How the results depend on the processing

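Depth is unknown, and a missing call may reflect it. Of the values recomputed over the windows under the alternatives, 188 kept their side of the threshold or, for counts, stayed within 1.5 times the count reported. These include many counts of 0 that stayed 0. Another 42 moved further and 1 became stronger. Of the recomputed results of single regions 60 were kept and 27 were not. These pool the gained and lost calls with the widths of the HDAC2 and EHMT2 regions, which were mostly kept. Of the 10 regions gained in DTP, 10 were kept at 50% coverage, 6 at a score of at least 100 and 4 in equal lists. Of the 5 gained with erlotinib in ALDH-low cells, 5, 2 and 2 were kept in the same order. The cause of these moves was not tested. In equal lists and at a score of at least 100 the regions were merged anew, so these counts can include regions other than those named. In DTP against PC9 the count of 10 gained became 5 in lists of equal size (11.1% of those tested, against 5.47% of all regions). Of the 10 named regions, 4 still met the rule there. The count was 4 with windows of 10 kb and 10 to 15 with a library left out. The 0 lost became 1 at a score of at least 100, and 0 to 1 with a library left out (1 without DTP c or without PC9 a). With erlotinib in ALDH-high cells 1 gained became 0 at 10 kb and 1 to 3 with a library left out (3 without ALDH-high erlotinib b or c), and 1 lost became 0 at a score of at least 100 and 1 to 2 (2 without ALDH-high erlotinib a or ALDH-high DMSO a or c). The gained count stayed at 1 at a score of at least 100 and in equal lists, but the named KDM5B region met the rule in neither. In ALDH-low cells 5 gained became 3 at a score of at least 100, 2 in equal lists, 2 at 10 kb and 5 to 10 with a library left out, and 1 lost became 0 at a score of at least 100 and 1 to 2 (2 without ALDH-low DMSO c). For ALDH-high against ALDH-low under DMSO, 2 gained became 1 at a score of at least 100, in equal lists, at 50% coverage and at 10 kb, and 2 to 5 with a library left out. Under erlotinib 0 gained became 0 to 1 (1 without ALDH-high erlotinib b or c or ALDH-low erlotinib a or c), and 0 lost became 1 in equal lists and 0 to 2 (1 without ALDH-high erlotinib a, 2 without ALDH-low erlotinib c). The KDM5B region gained in both fractions left 0 at a score of at least 100, in equal lists and at 10 kb, and the count was 1 to 2 with a library left out (2 without ALDH-high erlotinib c). Its adjusted exact permutation p was 0.0635 to 0.075 with a library left out. It was 0.0294 when adjusted over the 6480 regions able to reach a p under 0.05, an alternative chosen after seeing the data. Following single regions under each alternative was also chosen after seeing the data. At a score of at least 100, 1 member region separated the fractions at an unadjusted exact p under 0.05. Same-lettered libraries did not deviate together (correlations between -0.0133 and 0.0144 over 15 pairs of libraries), so the letters were not taken as pairs. With a replicate block 1 region, not 2, passed for erlotinib by the exact test and the KDM5B adjusted p was 0.0843. The width call at HDAC2 became 0 regions under the replicate block (limma adjusted p 0.065), and 0 in equal lists and at a score of at least 100, where fewer regions were tested. Without centring, which shifted the median log2 difference of all regions by 0.146 with erlotinib, 2 member regions were wider.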
